A study of Rattus norvegicus with 6 samples.

Results

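The genes described here are 38 genes of mitosis, the spindle, the kinetochore and cytokinesis, out of 14506 genes compared. They were listed by name for their known roles, and each was read from a probe set with exactly 1 gene symbol, taking the probe set of highest mean signal where a gene had more than 1. All 38 were named on the array. The study set cultured testis cells of rats (Rattus norvegicus) aged 9 days, labelled as Sertoli cells in their phase of proliferation, beside those of rats aged 21 days, and looked for differences in genes of growth, division and death of cells. The cells of both ages came from digested testes, were plated in DMEM/F12 with 10% fetal bovine serum, and got a change of medium after a further 24 hours as another step of purification. Each age had 3 arrays with replicate numbers 1 to 3, and no treatment or genetic change set the groups apart. No source used here gives the strain or says whether a replicate was 1 rat, 1 culture or a pool. The p-values therefore reflect the scatter among these samples alone, and that scatter may be technical. All signals below are log2 values, and a difference is the 21-day-old mean minus the 9-day-old mean. A standard error (SE) after a difference comes from a fit that ignores the replicate number. It therefore includes the spread between replicate numbers.

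Entry into mitosis is driven by cyclin-dependent kinase 1 bound to its A and B cyclins. The chromosomes are then compacted, attached through kinetochores to spindle microtubules, held by the spindle checkpoint until all are attached, parted when the anaphase-promoting complex marks securin and cyclin B for destruction, and split between the daughter cells by the central spindle. Most of these genes are transcribed mainly in the later part of the cell cycle, so their messenger RNA is widely used as a measure of how many cells of a population are dividing. Sertoli cells divide in the fetal and young testis and leave the cell cycle before puberty. In RNA from a whole culture, fewer dividing cells and less RNA in each dividing cell cannot be told apart.

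All 38 genes had a lower mean signal in the cultures from 21-day-old rats. The median difference was -0.39, a level of 0.762 of the younger one, and single genes ranged from -0.62 for the checkpoint kinase gene Bub1b to -0.06 for Cks2, which encodes a small subunit of cyclin-dependent kinases. Over all genes compared, 53.5% were lower at 21 days and the median difference was -0.0093. Among the 7253 genes of highest mean signal, which hold 37 of the 38, the median was -0.042 and 63.2% were lower at 21 days. The list was chosen with earlier results of these arrays known, so its direction is not independent evidence.

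None of the 38 passed an adjusted p under 0.05 in limma (Benjamini-Hochberg over all genes), nor did any other gene (0.0% of 14506), and every member had an adjusted p of 1. Counted by an unadjusted p under 0.05, 11 of the 38 were lower at 21 days, against 1.52% of all genes and 2.22% of the 7253 of highest mean signal lower by the same rule. That count varied with the arrays left out, in fits for which the share of all genes by the same rule was not counted. A fit on fewer arrays is also less precise, which by itself can lower such a count. The count for the members was 3 without 9-day-old replicate 1, 10 without 9-day-old replicate 2 and 5 without 9-day-old replicate 3. It was 18, 5 and 6 without 21-day-old replicates 1, 2 and 3, and 2 without both arrays numbered 3. With the replicate number as a block, which compares arrays of the same number with each other, it was 34 of 38, against 4.45% of all genes and 7.25% of those of highest mean signal, and again none passed after adjustment, with a lowest adjusted p of 0.347 among the members. The difference was negative in all 3 same-number pairs for 35 of the 38, against 14.4% of all genes and 20.5% of those of highest mean signal. Cks2, Pttg1 and Aurka were the exceptions, of which Cks2 had the same value at both ages in 1 pair, and Pttg1 and Aurka were higher at 21 days in 1 pair, by 0.06 and 0.01.

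**Figure D1:**
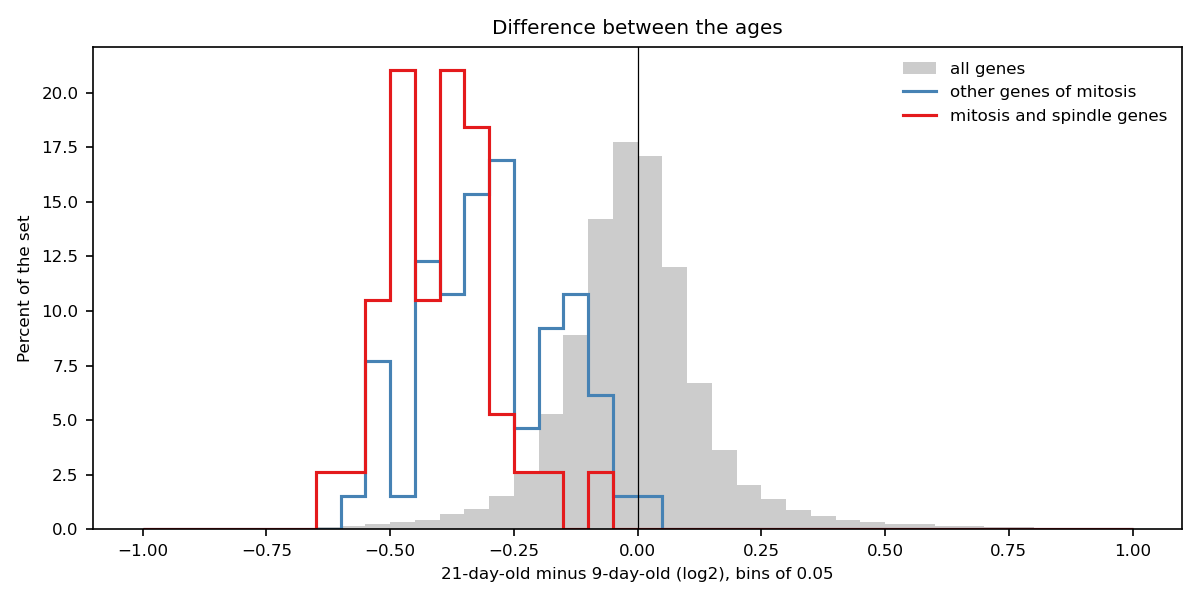
Differences between the ages (horizontal axis, 21-day-old minus 9-day-old, log2, in bins of 0.05) as a percent of each set (vertical axis) for all 14506 genes (grey), the 38 mitosis and spindle genes (red) and 65 other genes of mitosis (blue). The 62 genes with a difference beyond 1 in either direction are not drawn. The grey bars are centred near 0, while every member lies to the left of it, with a median of -0.39.

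The arrays had similar medians, from 3.78 to 3.87 over all probe sets, and the median of the 38 genes at 9 days, 7.27, lay above them. Cks2 was the only member below the medians of all arrays. Its signal was 3.50 on all 3 arrays at 9 days and 3.50, 3.48 and 3.34 at 21 days, and no detection calls were used here, so its level cannot be told from background. The arrays numbered 3 stood apart from the rest at both ages in markers of smooth muscle and peritubular myoid cells, and results are therefore also given without them. Without both of them the median difference of the 38 genes was -0.37 and all 38 stayed lower at 21 days.

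The label of the cultures was checked against marker lists. Of 22 measured Sertoli markers 13 were above the medians on every array, among them Vim, Clu, Gata4 and Wt1, whereas Amh, Fshr, Cldn11, Sox8, Dhh and Gata1 were below the medians on every array at both ages. These medians are over all probe sets and form a low bar, since the median 9-day-old mean of the genes compared was 4.64. Markers of peritubular myoid and smooth muscle cells gave high signals, with the smooth muscle actin gene Acta2 at 12.32 (9 days) against 12.07 (21 days), and Tagln at 11.35 against 11.22, and so did the fibroblast genes Col1a1 (11.63 and 11.54) and Col1a2 (11.47 and 11.29). The values of each list beside those of the members follow.

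Of 11 measured myoid and smooth muscle markers 10 were lower at 21 days, with a median difference of -0.35, close in size to that of the mitosis genes, and none passed the test. The sum of their linear signals ran from 7914 to 16415 at 9 days and from 5260 to 14752 at 21 days. Such a sum, here and below, is weighted towards the genes of highest signal in its list. The mean of the myoid markers differed by -0.05, -0.80 and -0.20 in the pairs numbered 1, 2 and 3, and the mean of the mitosis genes by -0.29, -0.40 and -0.50. Both lists differed least in pair 1, while the myoid markers differed most in pair 2 and the mitosis genes in pair 3. Fibroblast and stromal markers were lower for 8 of 11, with a median of -0.15, sums of 9169 to 11192 at 9 days and 9221 to 9845 at 21 days, and mean differences of -0.02, 0.40 and -0.28 by pair. The part of either cell type in the differences of the mitosis genes was not tested.

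Markers of germ cells, which also divide at these ages, were mostly below the array medians. Of 13 measured spermatogonial markers 9 were below the medians on every array, among them Ddx4, Dazl, Kit and Zbtb16, and the list had a median difference of -0.03, with sums of 383 to 422 at 9 days and 334 to 468 at 21 days. Uchl1, at 8.11 and 7.97, and Id4, at 4.65 and 4.89, had the highest mean signal of the list. Of 15 spermatocyte markers 12 were below all medians, the synaptonemal complex genes Sycp1, Sycp2 and Sycp3 among them. Mlh3 (4.70 and 4.60) and Piwil1 (3.68 and 3.75) had the highest mean signal, the median difference was 0.06, and the sums were 111 to 115 and 104 to 140. For Leydig cells, macrophages and endothelial cells the medians were -0.0013, -0.015 and 0.013, and the ranges of their sums overlapped between the ages, with 1955 to 2433 against 1962 to 2611, 255 to 351 against 306 to 377, and 113 to 136 against 118 to 128. Below the medians on every array were 5 of 8 measured Leydig, 10 of 12 macrophage and 6 of 9 endothelial markers. The Leydig markers of highest mean signal were Star (11.01 and 11.13) and Scarb1 (6.29 and 6.17). Those of macrophages were Cd14 (7.78 and 8.02) and Csf1r (3.61 and 3.58), and those of endothelial cells Cdh5 (5.03 and 4.85) and Egfl7 (4.85 and 4.80). The sums of the Leydig and macrophage lists were thus weighted towards Star and Cd14. The 22 Sertoli markers had a median of 0.22, with 4 lower, and sums of 7197 to 7922 and 7491 to 11384. Their mean was higher at 21 days in every pair, by 0.21, 0.38 and 0.96 in the pairs numbered 1, 2 and 3. Both this difference and that of the mitosis genes were smallest in pair 1 and largest in pair 3. The Sertoli mean was raised most by Tf and Testin, with differences of 3.59 and 2.28, against the median of 0.22. The part of the Sertoli shift in the differences of the mitosis genes was not tested.

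The promoters of the mitosis genes were searched for elements already known in genes of this class. The shares found describe the class of genes listed and do not come from the arrays. Genes of this phase are known to carry the cell cycle genes homology region (CHR), a short element bound by the MuvB complex, which represses them in resting cells as part of DREAM and activates them in dividing cells together with Mybl2 and Foxm1. CCAAT boxes, bound by NF-Y, commonly lie upstream of it. RefSeq promoter windows of build GRCr8, from 250 bases before to 50 after the outermost start of each gene, were matched by gene number for 32 of the 38. Aurkb, Ccna2, Cdca2, Racgap1, Tpx2 and Ube2c were not matched. The CHR core, searched as TTTGAA on both strands, was found in 23 of the 32 windows (71.9%) against 18.1% of 27457 windows of the same length. Within 100 bases before to 50 after the start it was found in 22 (68.8%) against 7.96%. The CCAAT box, searched as CCAAT on both strands, was found in 23 (71.9%) against 37.8%, both elements together in 18 (56.2%) against 7.28%, and 3 or more CCAAT boxes in 10 (31.2%) against 3.21%. The sequence GGCGG, a core of CDE and E2F motifs that is frequent in promoters rich in G and C, was found in 28 (87.5%) against 48.8%. The median content of G and C was 57.7% in the members' windows and 52.3% in all windows, and such shares were not corrected for it.

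The windows of 3 members are shown because their signals did not overlap between the ages and they hold both elements, followed by 3 that were picked after their sequences had been seen. Of these, Ccnb2 holds a series of CCAAT boxes before a CHR, and Cdc20 a CHR between 2 CCAAT boxes. Kif18b, whose ages also did not overlap, holds neither TTTGAA nor CCAAT. Each is written 5′ to 3′ on the strand of the gene, with TTTGAA and CCAAT, on either strand, in capitals (on the opposite strand they read TTCAAA and ATTGG).
Spc25, chr3:74396669-74396968, minus strand: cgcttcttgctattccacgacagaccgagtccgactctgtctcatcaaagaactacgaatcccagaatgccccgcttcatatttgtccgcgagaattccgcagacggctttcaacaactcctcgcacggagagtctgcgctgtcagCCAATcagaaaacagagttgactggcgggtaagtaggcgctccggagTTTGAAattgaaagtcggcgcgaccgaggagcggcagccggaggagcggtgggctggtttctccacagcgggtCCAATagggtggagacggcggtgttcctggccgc
Plk1, chr1:186147408-186147707, plus strand: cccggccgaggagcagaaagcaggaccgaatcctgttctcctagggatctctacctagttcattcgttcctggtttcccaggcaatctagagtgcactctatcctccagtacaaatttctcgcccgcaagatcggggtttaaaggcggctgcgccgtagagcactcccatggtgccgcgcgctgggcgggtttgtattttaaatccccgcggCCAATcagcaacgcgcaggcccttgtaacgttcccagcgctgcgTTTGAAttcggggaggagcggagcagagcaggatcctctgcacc
Cdca8, chr5:142483150-142483449, minus strand: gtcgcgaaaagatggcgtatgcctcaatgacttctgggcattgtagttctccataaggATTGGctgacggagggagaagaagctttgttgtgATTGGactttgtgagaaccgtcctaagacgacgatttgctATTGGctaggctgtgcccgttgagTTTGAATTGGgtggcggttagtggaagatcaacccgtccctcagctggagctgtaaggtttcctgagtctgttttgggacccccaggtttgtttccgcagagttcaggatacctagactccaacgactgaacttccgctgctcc
Ccnb2, chr8:79981609-79981908, minus strand: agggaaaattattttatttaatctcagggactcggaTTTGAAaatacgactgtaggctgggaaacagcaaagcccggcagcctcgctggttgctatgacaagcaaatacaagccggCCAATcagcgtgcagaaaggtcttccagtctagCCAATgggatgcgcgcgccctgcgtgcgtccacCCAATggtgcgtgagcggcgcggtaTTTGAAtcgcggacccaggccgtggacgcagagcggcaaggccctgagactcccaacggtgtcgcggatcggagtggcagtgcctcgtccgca
Cdc20, chr5:137255750-137256049, minus strand: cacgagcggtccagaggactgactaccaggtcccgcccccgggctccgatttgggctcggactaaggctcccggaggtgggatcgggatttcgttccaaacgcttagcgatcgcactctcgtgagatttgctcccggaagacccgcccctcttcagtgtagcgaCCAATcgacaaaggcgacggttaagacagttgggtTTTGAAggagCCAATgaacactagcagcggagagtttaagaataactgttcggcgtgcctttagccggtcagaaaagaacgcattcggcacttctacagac
Kif18b, chr10:88389642-88389941, minus strand: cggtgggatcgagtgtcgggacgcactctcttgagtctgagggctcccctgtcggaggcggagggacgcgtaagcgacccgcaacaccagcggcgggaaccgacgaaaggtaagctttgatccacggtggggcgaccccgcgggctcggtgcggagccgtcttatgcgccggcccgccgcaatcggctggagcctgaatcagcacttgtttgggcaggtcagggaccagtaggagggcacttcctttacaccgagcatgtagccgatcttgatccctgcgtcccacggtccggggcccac

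In Ccnb2 the CCAAT boxes start 134, 101 and 68 bases upstream of the start, a spacing of 33 bases between neighbours, and a CHR follows 43 bases upstream. A further CHR lies 214 bases upstream. A like spacing was found between 1 pair of neighbouring CCAAT boxes in Ccnb1 (32 bases), Cdk1 (32), Hmmr (33) and Cdca8 (34). These were picked for being close to that of Ccnb2. Over the members' windows, neighbouring CCAAT boxes of the same orientation lay from 27 (Kif20a) to 151 bases (Pttg1) apart. The share of such a spacing over all windows was not counted. In Cdc20 the CHR lies 51 bases upstream, in Spc25 57, and in Cdca8 94, where it overlaps a CCAAT box of the opposite strand. In Plk1 it starts at base 7 after the start. The median difference between the ages was -0.40 for the 23 members with TTTGAA in the window and -0.45 for the 9 without (Aurka, Bub1, Ccnb1, Cdca3, Dlgap5, Kif11, Kif18b, Kif2c and Kif20a). Only these letters were searched, in 1 window per gene, so the 9 are not shown to lack a CHR. A match of letters is a description of the window and not of binding. Of the genes whose products bind there, named for this role and outside the rule for named genes, Foxm1 was at 7.14 ± 0.25 and 6.73 ± 0.13 (9 and 21 days, SD, n = 3 each), Mybl2 at 8.15 ± 0.06 and 8.01 ± 0.01, and the MuvB gene Lin54 at 6.18 ± 0.20 and 5.92 ± 0.14. Their differences of -0.41 ± 0.15, -0.14 ± 0.06 and -0.26 ± 0.13 (SE) had an adjusted p of 1 each in limma. Their ages did not overlap, as was so, with a lower signal at 21 days, for 15 of the 65 other genes of mitosis they belong to and for 2.98% of all genes. In Lin54 the lowest younger and the highest older value were both 6.06 when rounded. Leaving out 9-day-old replicate 3 gave -0.27 for Foxm1, -0.11 for Mybl2 and -0.15 for Lin54. Genes of other MuvB subunits, of the rest of DREAM and of NF-Y were not examined. Foxm1, Mybl2 and Lin54 therefore do not stand for all genes whose products bind these elements.

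**Figure D2:**
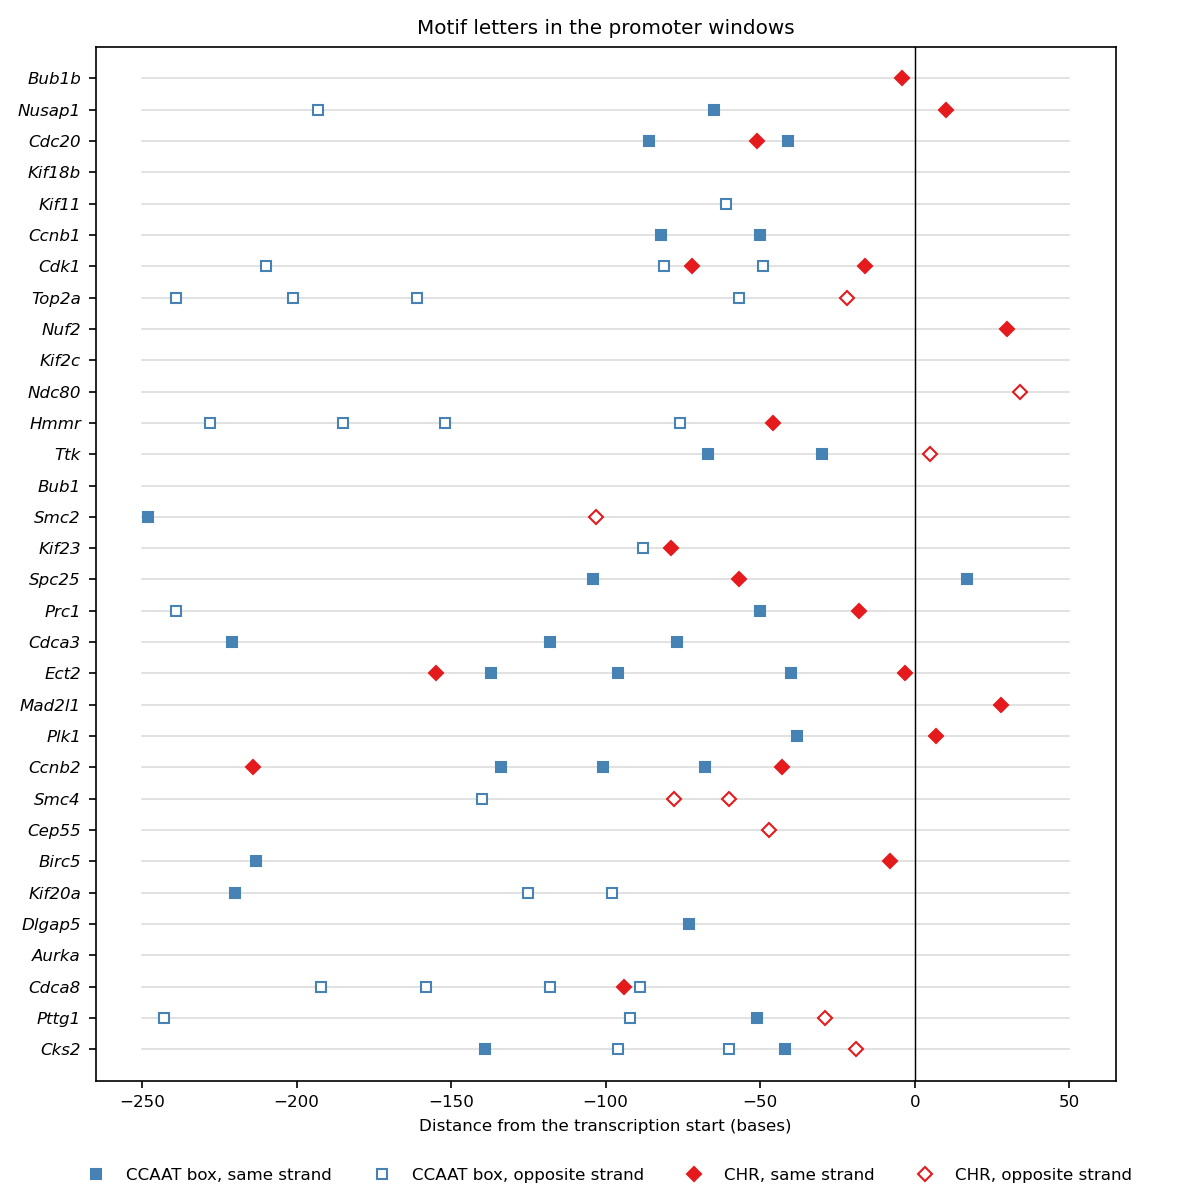
Positions of CCAAT boxes (squares) and CHR cores (diamonds) in the windows of 32 members, against the distance from the transcription start in bases (horizontal axis, upstream negative). Filled symbols are on the strand of the gene and open ones on the opposite strand, and genes are ordered from the largest to the smallest difference between the ages. CHR cores gather near the start, within 100 bases before to 50 after it in 22 windows, with CCAAT boxes mostly upstream of them.

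The kinase engine of mitosis was lower at 21 days in all 5 members, with a median difference of -0.37. Ccnb1, the main B cyclin, was at 8.51, 7.85 and 8.04 on the arrays numbered 1, 2 and 3 at 9 days and at 8.12, 7.34 and 7.38 at 21 days. Array 1 was the highest at both ages, and its 21-day-old value lay above the 9-day-old values of the other numbers, so the ages overlapped. The difference of -0.52 ± 0.27 (SE) is 30.2% less signal. Cdk1, the kinase that this cyclin activates, was at 7.82, 7.48 and 7.67 at 9 days and 7.50, 7.05 and 6.93 at 21 days, a difference of -0.50 ± 0.17. Only array 1 of the older age reached into the range of the younger, by a margin of 0.02. Ccna2, the A cyclin of S phase and early mitosis, differed by -0.37 ± 0.26, and Ccnb2, the second B cyclin, by -0.34 ± 0.35. A second probe set of Ccnb2 gave -0.37. Cks2, whose signal is described above, differed by -0.06 ± 0.07. Without both arrays numbered 3 the difference was -0.45 for Ccnb1, -0.37 for Cdk1 and -0.22 for Ccnb2. The median of the set was -0.23 without 9-day-old replicate 1 or 21-day-old replicate 2, and -0.67 without 21-day-old replicate 1.

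Kinetochore and checkpoint genes were lower in all 7 members and in all 3 pairs for each of them, with a median of -0.46. Bub1b, which encodes the checkpoint protein BubR1, was at 6.58, 5.90 and 6.08 at 9 days and 6.07, 5.36 and 5.26 at 21 days. Its difference of -0.62 ± 0.27 (SE), or 35.0% less signal, was the largest of the 38, yet 21-day-old array 1 overlapped the younger range, and without 9-day-old replicate 1 the difference was -0.43. Nuf2, a subunit of the NDC80 complex that grips microtubules, was at 7.57, 7.01 and 7.07 and at 7.27, 6.49 and 6.44, a difference of -0.49 ± 0.27, again with an overlap through array 1. Spc25, of the same complex, was the one gene of this set whose ages did not overlap, with 5.73, 5.41 and 5.76 at 9 days, against 5.23, 5.19 and 5.29 at 21 days and a difference of -0.40 ± 0.11. Its CHR is in the window printed above. Ndc80, which names the complex, differed by -0.47 ± 0.31, the checkpoint kinase gene Ttk by -0.46 ± 0.24, and the checkpoint kinase gene Bub1 by -0.45 ± 0.40. Bub1 had the widest spread of the 38 at 9 days, from 6.22 to 7.37, while its pairs differed by -0.41, -0.43 and -0.50. Mad2l1, the checkpoint protein that binds Cdc20, had the most even pairs, with -0.35, -0.34 and -0.37, and a difference of -0.35 ± 0.15. The median of the set was -0.72 without 21-day-old replicate 1.

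Genes of ubiquitin ligases that control anaphase and entry into mitosis were lower in all 4 members, with a median of -0.35. Cdc20, the activator of the anaphase-promoting complex, was at 7.47, 7.11 and 7.39 at 9 days and 7.11, 6.49 and 6.73 at 21 days. Its ages touched without crossing, since 9-day-old replicate 2 and 21-day-old replicate 1 had the same value, and the difference was -0.54 ± 0.18 (SE). Cdca3, an adaptor for the destruction of the mitosis inhibitor Wee1, was at 6.60, 6.58 and 6.52 and at 6.43, 6.17 and 5.96, a difference of -0.38 ± 0.13 without overlap. Ube2c, the ubiquitin-conjugating enzyme of the anaphase-promoting complex, was at 8.10, 7.97 and 8.16 and at 7.87, 7.82 and 7.58, a difference of -0.32 ± 0.10 without overlap. Most of the difference of Ube2c came from the pair numbered 3 (-0.58, against -0.23 and -0.15), and without both arrays of that number it was -0.19. Pttg1, which encodes securin, the inhibitor of separase, differed by -0.16 ± 0.20, with 0.06 in the pair numbered 1, and by -0.06 without the arrays numbered 3.

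The chromosomal passenger complex, which corrects faulty attachments and later guides cytokinesis, was represented by 3 genes. It was the one set whose mean signal did not overlap between the ages, though its median difference was the smallest in size of the sub-functions. Its mean was 7.01, 6.84 and 6.86 at 9 days and 6.69, 6.59 and 6.42 at 21 days. Aurkb, its kinase, was at 8.69, 8.57 and 8.65 at 9 days, against 8.21, 8.20 and 8.09 at 21 days. The lowest of the younger values exceeded the highest of the older by 0.35, the widest gap among the 38, and the difference of -0.47 ± 0.07 (SE) is 27.7% less signal. With 1 array left out it stayed between -0.50 and -0.43. Cdca8, which encodes borealin, was at 6.15, 6.15 and 6.12 and at 6.05, 5.85 and 5.83, a difference of -0.23 ± 0.08 without overlap. Birc5, which encodes survivin, was at 6.18, 5.81 and 5.81 and at 5.82, 5.72 and 5.33, a difference of -0.32 ± 0.17, with the ages overlapping through 21-day-old replicate 1. The unadjusted p of Aurkb, 0.000614, was the lowest of the members in limma, and its adjusted p was 1. The median of the 3 genes, -0.32, was -0.19 without 21-day-old replicate 3. Incenp, another gene of the complex, was listed among the other genes of mitosis and differed by -0.26 ± 0.09 without overlap.

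**Figure D3:**
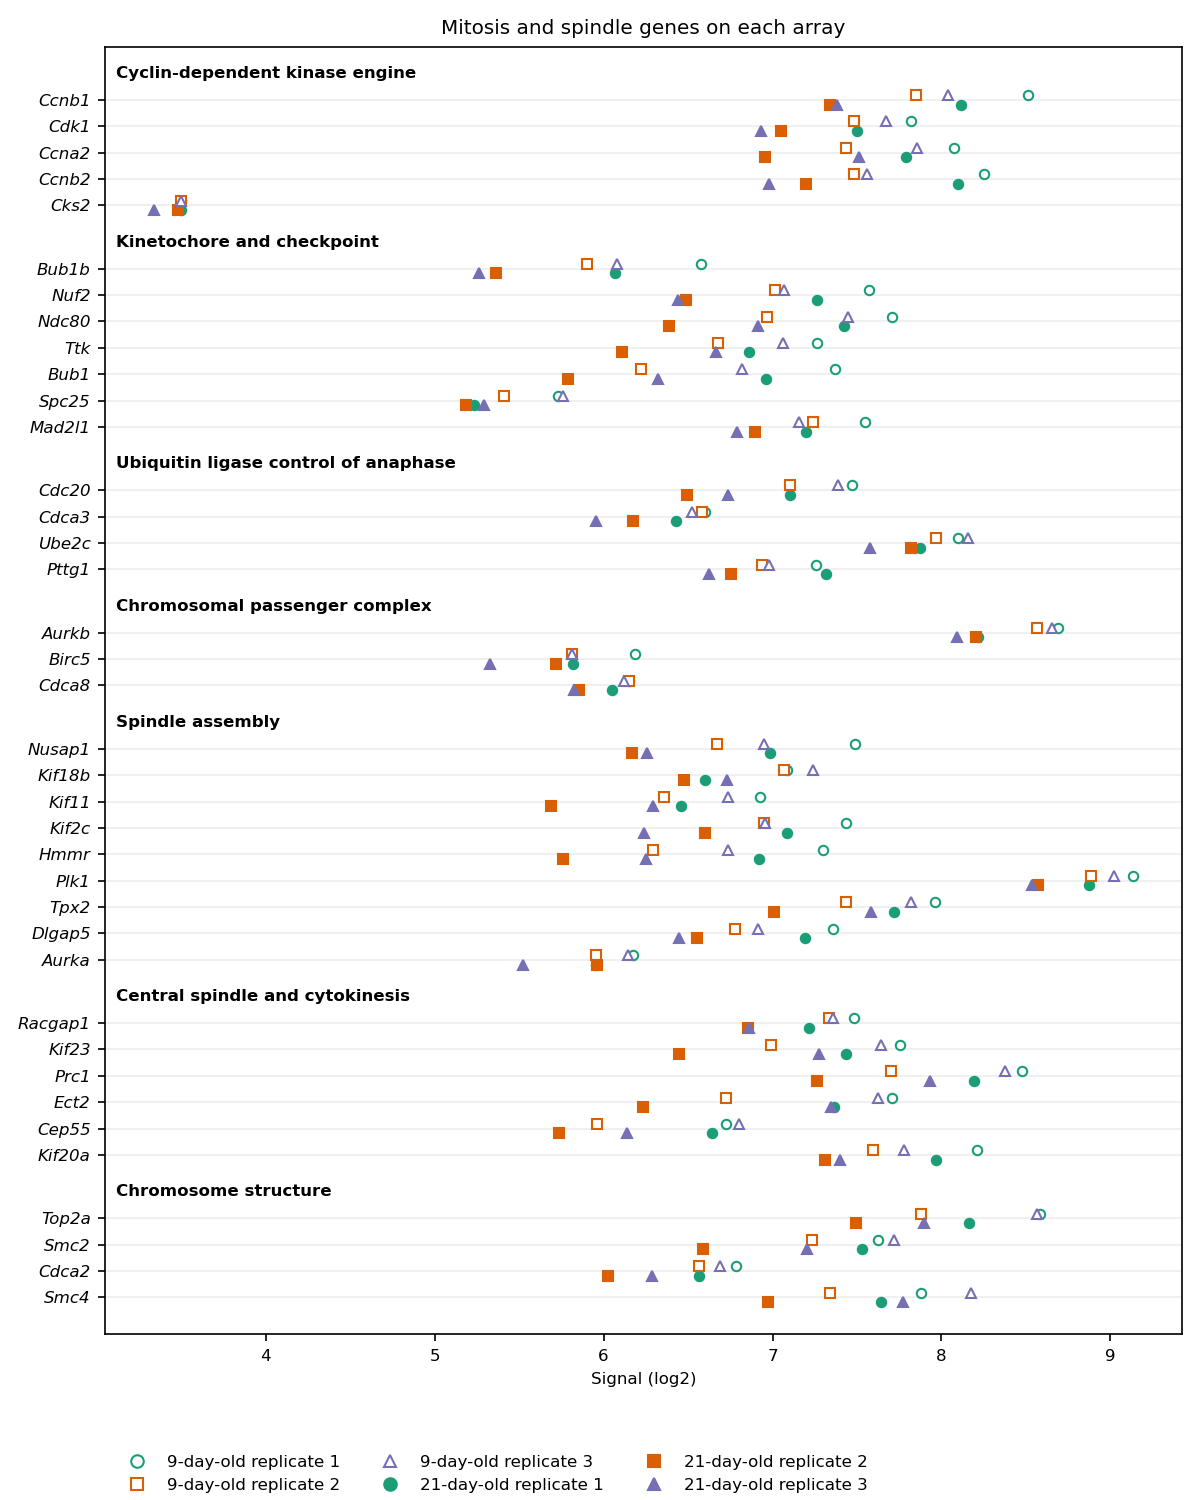
Signal of each of the 38 genes (log2, horizontal axis) on each of the 6 arrays, with open symbols for 9 days and filled symbols for 21 days, and the shape and colour for the replicate number. Genes are grouped by role and ordered by difference. In Aurkb and Kif18b the open and filled symbols are parted by more than 0.3, while in Bub1, Hmmr and Ect2 the symbols of 1 age spread widely, with the arrays numbered 2 at the low end.

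Spindle assembly genes were lower in all 9 members, with a median of -0.46. Nusap1, which bundles spindle microtubules at chromosomes, was at 7.49, 6.67 and 6.95 at 9 days, against 6.98, 6.17 and 6.26 at 21 days. The ages overlapped, and the difference of -0.57 ± 0.30 (SE) was -0.34 without 9-day-old replicate 1. Kif18b, a motor that shortens astral microtubules, was at 7.09, 7.07 and 7.24 and at 6.60, 6.47 and 6.73, a difference of -0.53 ± 0.09 or 30.8% less signal, with no overlap and pairs of -0.49, -0.59 and -0.51. Its window, printed above, holds neither TTTGAA nor CCAAT. Plk1, the kinase of centrosome maturation and of many other mitotic steps, was at 9.13, 8.88 and 9.02 and at 8.87, 8.57 and 8.54. The ages were parted by 0.01, and the difference was -0.35 ± 0.12. Kif11, the motor that pushes the spindle poles apart, differed by -0.53 ± 0.24, Kif2c, a microtubule depolymerase of the kinetochore, by -0.47 ± 0.25, and Hmmr, a spindle protein that is also a receptor for hyaluronan, by -0.46 ± 0.37. Tpx2, which activates Aurka on the spindle, differed by -0.30 ± 0.23 and the kinetochore fibre gene Dlgap5 by -0.29 ± 0.25. Aurka itself differed by -0.28 ± 0.14, with pairs of -0.21, 0.01 and -0.62, and by -0.10 without both arrays numbered 3, against -0.42 for Aurkb. The median of the set was -0.29 without 9-day-old replicate 1 and -0.31 without 21-day-old replicate 2.

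Central spindle and cytokinesis genes were lower in all 6 members and in each pair, with a median of -0.38. Racgap1, which with Kif23 forms the centralspindlin complex, was at 7.48, 7.34 and 7.36 at 9 days and 7.22, 6.86 and 6.86 at 21 days, a difference of -0.41 ± 0.12 (SE) without overlap. Kif23, its motor partner, was at 7.75, 6.99 and 7.64 and at 7.44, 6.44 and 7.28. Here the ages overlapped widely, with the arrays numbered 2 lowest at both, and a nearly equal difference of -0.41 had an SE of 0.33. Prc1, which crosslinks the central spindle, differed by -0.39 ± 0.31, Kif20a, a motor that carries passenger proteins to it, by -0.30 ± 0.23, and Cep55, which recruits the machinery of abscission, by -0.32 ± 0.31. Ect2, the exchange factor that starts the cleavage furrow, differed by -0.37 ± 0.41, with pairs of -0.34, -0.49 and -0.27. It was the only member whose sign turned in any alternative, at 0.0047 without 21-day-old replicate 2. The median of the set was -0.11 without that array, -0.23 without 9-day-old replicate 1 and -0.61 without 9-day-old replicate 2.

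Chromosome structure genes were lower in all 4 members and in each pair, with a median of -0.40. Top2a, the topoisomerase that untangles sister chromatids, was at 8.58, 7.88 and 8.57 at 9 days, against 8.17, 7.49 and 7.90 at 21 days. The older arrays 1 and 3 lay within the younger range, and the difference was -0.49 ± 0.26 (SE). Smc2, a core subunit of condensin, was at 7.63, 7.23 and 7.72 and at 7.53, 6.59 and 7.20, with an overlap through array 1, and differed by -0.42 ± 0.27. Its pair numbered 1 differed by -0.10 and the others by -0.64 and -0.52. Smc4, the partner of Smc2 in condensin, differed by -0.34 ± 0.29, and Cdca2, which brings a phosphatase to chromatin at the end of mitosis, by -0.39 ± 0.15. The median of the set was -0.21 without 21-day-old replicate 2.

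The members whose ages did not overlap differed from the others in spread more than in the size of the age difference. The 8 without overlap, Aurkb, Kif18b, Spc25, Racgap1, Ube2c, Cdca3, Cdca8 and Plk1 (8 of 38, against 2.98% of all genes and 3.81% of the 7253 of highest mean signal without overlap and lower), had a median difference of -0.39 and 9-day-old ranges with a median of 0.16. The other 30 had a median difference of -0.40 and a median range of 0.60. A narrow range makes an overlap less likely by construction. The median SE over the 38 was 0.243, against 0.112 over all genes, and with the replicate number as a block it was 0.0821 against 0.0858. The range of the 9-day-old arrays exceeded the size of the age difference in 25 of the 38, against 80.2% of all genes.

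The spread followed the replicate number. Array 1 was the highest of its age at both ages for 29 of the 38 (10.5% of all genes), and array 2 the lowest at both ages for 22 (12.7% of all genes). Over the 38 genes the mean signal was 7.38, 6.89 and 7.18 at 9 days and 7.09, 6.50 and 6.68 at 21 days, so that the older array 1 stood above the younger array 2. Myoid markers took another order, with means of 7.05, 7.24 and 8.34 at 9 days. Their mean at 21 days was lowest on array 2, with 6.44, and highest on array 3, with 8.14. Within pairs the median difference of the members was -0.30, -0.43 and -0.49 for the numbers 1, 2 and 3, and it was the pair numbered 3 that had the lowest value for 25 of the 38 (30.3% of all genes). The labels do not say what the numbers stand for.

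**Figure D4:**
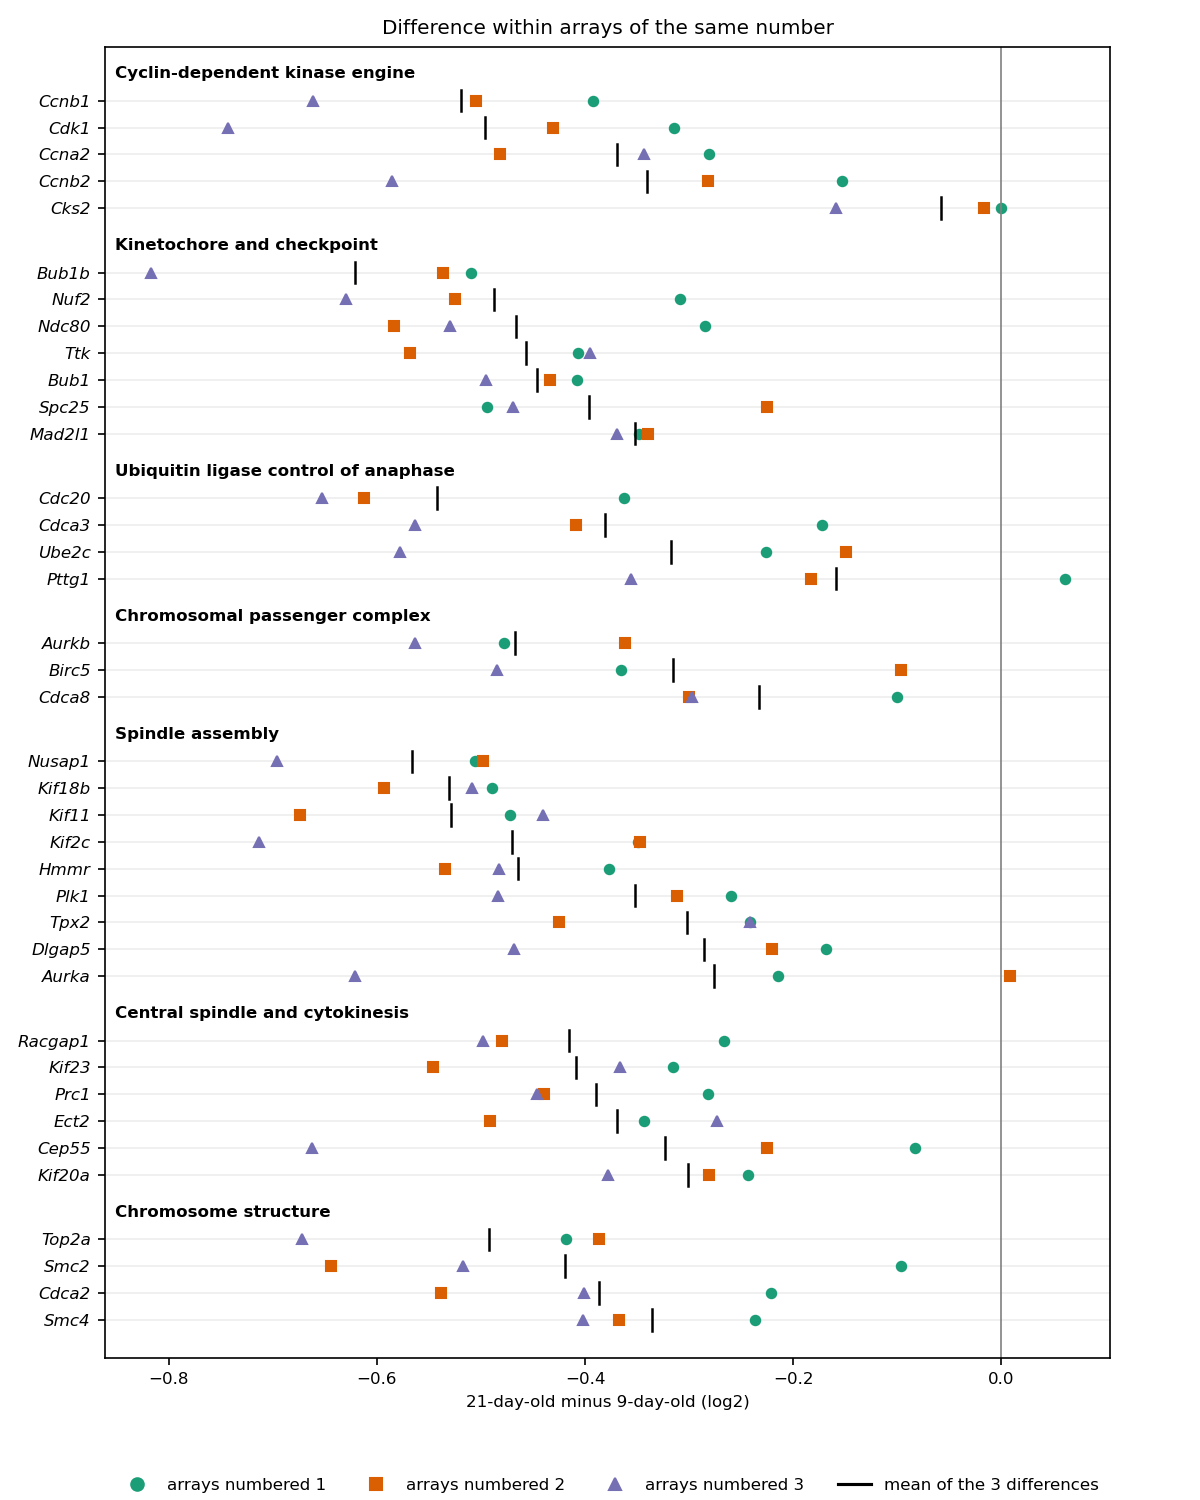
Difference between 21-day-old and 9-day-old arrays of the same number (log2, horizontal axis) for each of the 38 genes, with a symbol for each number and a black bar for their mean. Nearly all symbols lie left of 0, and for 35 genes all 3 do. The triangles of the pair numbered 3 are leftmost for 25 genes.

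**Figure D5:**
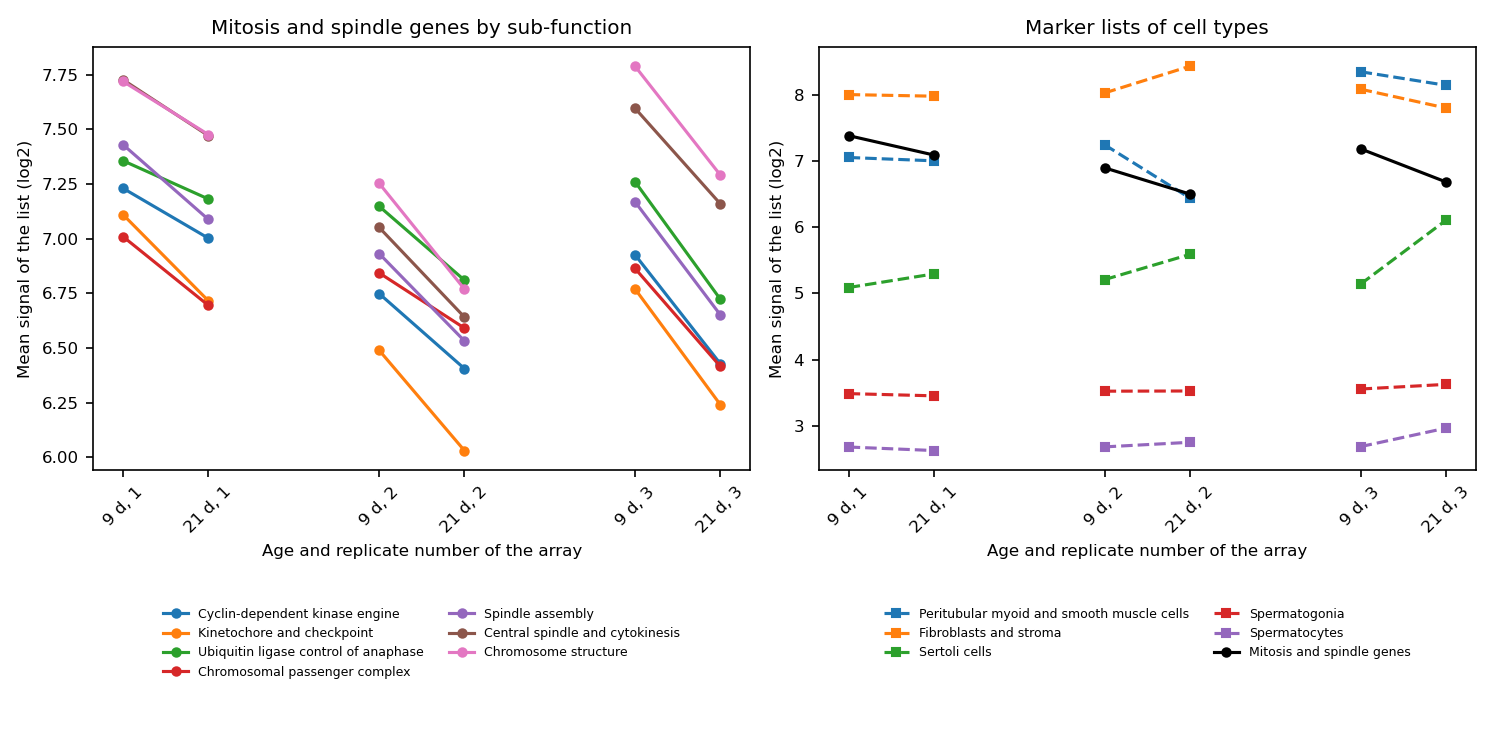
Mean signal (log2, vertical axis) of the sub-functions of the mitosis genes (left) and of marker lists beside all 38 genes in black (right) on each array, with lines joining arrays of the same number. The 9-day-old point is on the left of each line. All 7 sub-functions slope down in all 3 pairs, while the myoid markers (blue dashed line) slope down most in pair 2 and are highest in pair 3.

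Other genes of mitosis, listed from general knowledge beside the 38, took the same side. This list too was made with earlier results of these arrays known, so its direction is not independent evidence. Of 96 listed genes 65 were measured, with a median difference of -0.30 and none past the test. Lower at 21 days were 64 of the 65, against 53.5% of all genes, and 53 were lower in all 3 pairs, against 14.4%. The ages did not overlap, with a lower signal at 21 days, for 15, against 2.98% of all genes. The largest differences were those of Kif4a, a chromosome motor, with -0.56 ± 0.29 (SE), Cenpi, a kinetochore subunit, with -0.54 ± 0.33, Stmn1, which destabilises microtubules, with -0.53 ± 0.14, and Kntc1, of the checkpoint complex that recruits dynein, with -0.53 ± 0.16. Stmn1 and Kntc1 did not overlap between the ages, and Stmn1 was at 8.95, 8.61 and 8.84 at 9 days, against 8.49, 8.22 and 8.10 at 21 days. Without 21-day-old replicate 2 the difference was -0.33 for Kif4a, -0.22 for Cenpi and -0.39 for Kntc1, and without 21-day-old replicate 3 it was -0.45 for Stmn1. Leaving out 1 array made the difference over 1.5 times smaller, or turned it, for 49 of the 64, a share that was not counted over all genes. The one gene with a higher mean at 21 days was Pkmyt1, a kinase that holds Cdk1 inactive, with 0.04 ± 0.12. The smallest of the negative differences were -0.02 ± 0.18 for the checkpoint gene Zw10, -0.06 ± 0.06 for the anaphase-promoting complex gene Cdc23 and -0.06 ± 0.16 for the kinetochore gene Zwint. Each of Pkmyt1, Zw10 and Zwint took both signs with single arrays left out.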

How the data were processed

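Total RNA of 6 samples of cultured cells was labelled through a whole-transcript kit and measured on Affymetrix arrays, 3 per age, per the labels' protocols and the series' design text. The submitters' processing notes name RMA, and what the authors deposited is on a log2 scale. RMA corrects background, normalizes by quantiles and summarises probes by medians. No source used here gives its version, its settings or a genome build. The same value stood on 2 or more arrays for 37.8% of genes and for 3 of the 38 members (Cks2, Cdc20 and Birc5).

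Of 29214 probe sets 15310 had 1 gene symbol in the platform annotation, 323 had several and 13581 were unnamed here. By Entrez number 15279 were found in RefSeq, and 0 symbols changed. Where a gene had several probe sets (527 genes), the one of highest mean was kept. Levels of different genes were not compared as amounts, since RMA has no zero. The sums of marker lists were compared between arrays only and are not amounts of a cell type.

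The ages were compared in limma 3.58.1 (R 4.3.3) with lmFit and eBayes, without covariates, over all 14506 genes, with a threshold of 0.05 after Benjamini-Hochberg adjustment. The fit was tested on simulated data. The number of arrays limits the precision. The members, lists and roles were chosen with earlier results of these data known, and so was the rule that gives values on every array to members without overlap and to the 2 of largest difference in each role, names the 4 most negative and 4 most positive differences among other genes of mitosis (only 1 was above 0), and the 2 genes of highest mean in each marker list. Replicate numbers come from the titles. Deviations of same-numbered arrays from their age means correlated at 0.439, 0.549 and 0.673 over the genes, all above the limit of 0.1. Same-numbered arrays were therefore also compared as pairs and with the replicate number as a block. The SE given for single genes come from the fit without the block. They and the overlaps between ages thus include the spread between replicate numbers. For Bub1 the SE was 0.396 without the block and 0.068 with it. The block changed no call. Array dates and background signals were not used here. The alternatives were the block, keeping 75% or 50% of genes by mean, centring on medians, a second quantile normalization, the mean over probe sets, a robust trended prior, array weights, and leaving out each array or both numbered 3. Python 3.11.15 and matplotlib 3.10.9 drew the figures.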

Additional observations from a re-analysis of the deposited data

How the results depend on the processing

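No gene, member or other, passed the adjusted threshold under any of the alternatives, so no call was gained or lost, with the replicate block included. The count of members lower at 21 days was 38 of 38, with 2 exceptions: 37 of the 37 members kept among the 7253 genes of highest mean signal (Cks2 was not kept), and 37 of 38 without 21-day-old replicate 2, where Ect2 turned to 0.0047 (Ect2 ran from -0.68 to 0.0047 with single arrays left out). The median difference of the members was between -0.42 and -0.31 under the alternatives that leave out no array or both numbered 3, and between -0.56 and -0.28 with single arrays left out. With single arrays left out the median of the kinase engine ran from -0.67 to -0.23 and that of the chromosomal passenger complex from -0.41 to -0.19. In the other sub-functions it stayed negative. Centring the arrays on their medians moved the median of all genes from -0.0093 to -0.035, and the replicate block moved no difference of a member, since the design is balanced, with the median at -0.39. Array weights gave the smallest median of those fits, -0.31. Leaving out 1 array made the difference over 1.5 times smaller for 26 of the 38 members, for 15 of them most without 21-day-old replicate 2, for 6 without 9-day-old replicate 1 and for 5 without 21-day-old replicate 3. The share of all genes with such a change was not counted, so it is not shown to be particular to the members. No detection calls or background signals were used here, which limits Cks2 most.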
